A study of Mus musculus with 11 samples.

Results

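The genes described here code for proteins of the acute-phase response and for calprotectin: the serum amyloid A genes Saa1, Saa2 and Saa3, lipocalin 2 (Lcn2), the calprotectin chains S100a8 and S100a9, haptoglobin (Hp) and leucine-rich alpha-2-glycoprotein 1 (Lrg1). They were picked by symbol, and all 8 were found among the 35683 genes of the deposited table. The RNA came from the whole wall of the colon of 11 mice aged 2 weeks. There were 6 Tnfr1-/- mice, labelled as deleted for TNF receptor 1 (gene Tnfrsf1a) with no tissue-specific driver named, and 5 wild-type mice. Neither group had a treatment in the labels, and the kind of Tnfr1 allele, the strain, sex, litter and sequencing batch are not given there. Each library came from 1 mouse. The comparison asks what the loss of this TNF receptor does to the colon before weaning, per the title of the series.

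Acute-phase proteins are secreted in bulk when infection or injury raises inflammatory cytokines. Interleukin 6 works through STAT3, interleukin 1 and TNF work through NF-kB, and both routes meet C/EBP factors at many of these genes. The liver is the main source, but the gut lining also makes serum amyloid A, which carries retinol and lipids, and lipocalin 2, which withholds iron from bacteria. Calprotectin is the pair of S100A8 and S100A9, which binds zinc and manganese. It fills the cytosol of neutrophils and is also made by keratinocytes of squamous skin and mucosa. Lipocalin 2 and calprotectin in stool are common measures of intestinal inflammation.

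Saa1, Saa2 and Saa3 lie close together on chromosome 7 of GRCm38, with 24797 bases between Saa3 and Saa1 and 8810 bases between Saa1 and Saa2. The stretches just before their transcription starts are shown because the members of this cluster differed widely in level. They are the 250 bases before each start from RefSeq (GRCm38.p6), at chr7:46742981-46743230 on the minus strand for Saa1, chr7:46751583-46751832 on the plus strand for Saa2 and chr7:46715677-46715926 on the minus strand for Saa3, written 5′ to 3′. In Saa1 and Saa2, capitals mark the bases that differ or have no partner when those 2 are aligned. In Saa3, capitals mark a match to the C/EBP motif on the opposite strand.
Saa1: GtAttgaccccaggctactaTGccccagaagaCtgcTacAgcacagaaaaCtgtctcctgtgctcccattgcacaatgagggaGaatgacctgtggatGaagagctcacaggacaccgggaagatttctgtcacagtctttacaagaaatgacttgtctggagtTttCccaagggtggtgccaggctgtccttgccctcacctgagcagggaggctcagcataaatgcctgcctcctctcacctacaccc
Saa2: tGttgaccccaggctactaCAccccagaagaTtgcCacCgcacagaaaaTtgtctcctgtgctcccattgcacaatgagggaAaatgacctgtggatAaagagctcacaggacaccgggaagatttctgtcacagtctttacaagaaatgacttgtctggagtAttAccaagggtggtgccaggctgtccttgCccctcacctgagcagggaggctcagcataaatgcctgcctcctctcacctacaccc
Saa3: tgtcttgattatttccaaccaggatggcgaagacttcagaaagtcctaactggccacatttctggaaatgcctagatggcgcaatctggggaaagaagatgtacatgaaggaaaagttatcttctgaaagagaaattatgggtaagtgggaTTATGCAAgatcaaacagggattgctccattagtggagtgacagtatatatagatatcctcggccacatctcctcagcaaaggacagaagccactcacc

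Aligned over 250 bases before and 50 after the start, the promoters of Saa1 and Saa2 were the same at 287 of 301 aligned positions (95.3%), and those of Saa1 and Saa3 at 50.9%. RefSeq promoters were found for 7 of the 8 genes, and Hp was not among them. The C/EBP motif TTGCNNAA, searched on both strands, matched in 5 of the 7, against 10.8% of all 32851 promoters. It began at base -182 from the start in Saa1, -183 in Saa2, -99 in Saa3, -216 in Lcn2 and -236 in S100a9, and no match was found in S100a8 and Lrg1. The STAT motif TTCNNNGAA and the NF-kB motif matched in 0 of the 7, against 8.30% and 4.51% of all promoters. The letters of the NF-kB motif are not given here. A match, or none, says only whether the letters searched are in the window, and sites that differ from them are missed.

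Values are the authors' transcript abundances (TPM scaled by each library's size factor), summed here over the transcripts of a gene. Genes were tested with limma on log2(value + 0.5), for genes with a value of at least 1 in at least 5 libraries, and a gene was called at an adjusted p under 0.05 (Benjamini-Hochberg, over all 15079 such genes). The targeted gene, Tnfrsf1a, was at 19.01 to 28.03 in Tnfr1-/- colons and at 61.7 to 73.1 in wild-type colons (log2 fold change -1.57, limma adjusted p = 8.52e-05). It was the 1 gene called of the 15079, or 0.00663%. All 15 markers of colonic epithelium passed the filter, the highest being Lgals4, which averaged 2468 in Tnfr1-/- colons and 2754 in wild-type colons. Of the 8 acute-phase and calprotectin genes, 7 passed the filter on low values and 0 were called. Without adjustment, 1413 of the 15079 genes had a p under 0.05 (9.37%, made up of 4.2% higher and 5.17% lower in Tnfr1-/- colons), and among the 7 it was 1, Saa3. The groups did not overlap for 225 of the genes tested (1.49%) and for 0 of the 7. The table gives no read totals, so reads were estimated from the authors' deposited means, and they are normalized estimates. The lowest library had 5064 such reads for Saa1, 56 for Saa3, 37 for Hp, 30 for S100a9, 23 for S100a8, 20 for Lrg1, 18 for Lcn2 and 1 for Saa2.

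**Figure D1:**
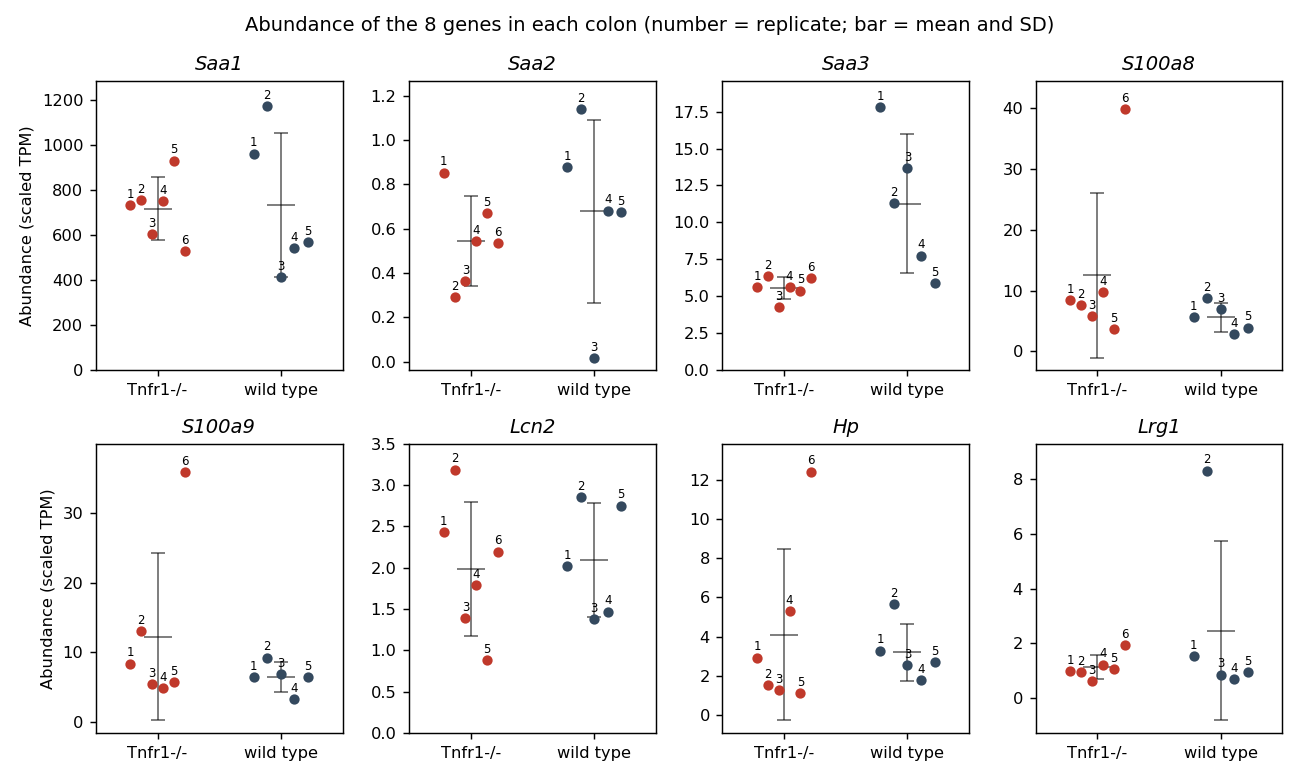
Abundance (TPM over the library's size factor) of each of the 8 genes in the 6 Tnfr1-/- colons (red, left) and the 5 wild-type colons (blue, right), 1 point per mouse, numbered by replicate, with the mean and SD as a bar. Of the 5 wild-type colons, 4 lie above all Tnfr1-/- colons for Saa3, and Tnfr1-/- replicate 6 stands alone at the top for S100a8, S100a9 and Hp.

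Saa1 was by far the highest of the 8 genes, and its mean level was close in both genotypes. Saa1 (ENSMUSG00000074115, chr7:46740497-46742980, minus strand) encodes a serum amyloid A that circulates on high-density lipoprotein. Its abundance was 734, 758, 605, 752, 932 and 528 in Tnfr1-/- replicates 1 to 6, against 963, 1175, 415, 544 and 571 in wild-type replicates 1 to 5. The wild-type colons held both the highest pair of values (replicates 1 and 2) and the lowest (replicate 3), so the groups overlapped fully. The means were 718 ± 140 in Tnfr1-/- colons (SD, n = 6) and 734 ± 321 in wild-type colons (SD, n = 5), with a log2 fold change of 0.05 (SE 0.25, 95% interval -0.51 to 0.61, limma adjusted p = 0.971). Without wild-type replicates 1 and 2, the log2 fold change was 0.48 (limma adjusted p = 0.231). The summed markers of colonic epithelium were at 9168 to 12935 in Tnfr1-/- colons, and at 14409 and 16323 in those same wild-type mice, against 9922 to 11087 in the other wild-type colons. The part of these cell markers in the level of Saa1 was not tested. In whole tissue, fewer cells of a type and less RNA per cell cannot be told apart.

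Saa2 (ENSMUSG00000057465, chr7:46751790-46754313, plus strand) encodes the close copy of Saa1 and was almost silent beside it. It was at 0.853, 0.291, 0.364, 0.545, 0.671 and 0.535 in Tnfr1-/- colons, and at 0.877, 1.14, 0.0173, 0.682 and 0.674 in wild-type colons. The highest and the lowest value were both in wild-type colons. It reached 1 in only 1 library, so it was not tested, and in a fit without the filter its log2 fold change was -0.10 (limma adjusted p = 0.943). Saa2 made up 0.0833% of the summed abundance of the pair, with a range over libraries of 0.00416% to 0.125%, or 1 to 13 estimated reads. The coding sequences were 95.1% identical, with 18 differences in 366 bases, and reads of 75 bases were assigned between them by the authors' estimate. The stretch that differs most shows what such a read carries. It covers coding bases 75 to 149, which cross an intron, within chr7:46741337-46742448 on the minus strand for Saa1 and chr7:46752365-46753475 on the plus strand for Saa2 (GRCm38), with the 10 differences in capitals.
Saa1: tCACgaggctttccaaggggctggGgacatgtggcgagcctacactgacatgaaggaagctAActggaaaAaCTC
Saa2: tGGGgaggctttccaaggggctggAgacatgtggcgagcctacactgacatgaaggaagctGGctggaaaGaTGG

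All 292 stretches of 75 bases in the coding sequence held at least 1 difference, so none was shared whole. Of the 579 words of 31 bases in the main Saa1 transcript, 155 also occur in Saa2. The split of the pair rests on the other 424 words, and Saa1 and Saa2 are also given as a sum.

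Saa3 was the member with the lowest p between genotypes. It had a mean in Tnfr1-/- colons of 5.58 ± 0.731 (SD, n = 6), against 11.3 ± 4.73 in wild-type colons (SD, n = 5). Saa3 (ENSMUSG00000040026, chr7:46711998-46715700, minus strand) encodes the serum amyloid A that mice make mainly outside the liver, in macrophages, fat and gut epithelium. The 6 Tnfr1-/- colons had 5.62, 6.34, 4.29, 5.61, 5.39 and 6.21, and the 5 wild-type colons had 17.8, 11.3, 13.7, 7.76 and 5.89. Of the 5 wild-type colons, 4 lay above every Tnfr1-/- colon, while wild-type replicate 5 lay within their range. The fold was 0.549 (95% interval 0.384 to 0.785), or a log2 fold change of -0.87 (SE 0.24). Its unadjusted p was 0.00352, which ranked 155 of all genes tested, where 5.17% were lower in Tnfr1-/- colons with an unadjusted p under 0.05. The limma adjusted p was 0.343, so the difference did not pass the threshold over all genes. In the authors' deposited table, the main Saa3 transcript had a p of 0.00672 and a q of 0.911. Another transcript of Saa3, with no coding sequence, held 3.86 of the 13.7 in wild-type replicate 3. Without wild-type replicates 1 and 2, the log2 fold change of the gene was -0.59 (limma adjusted p = 0.244).

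**Figure D2:**
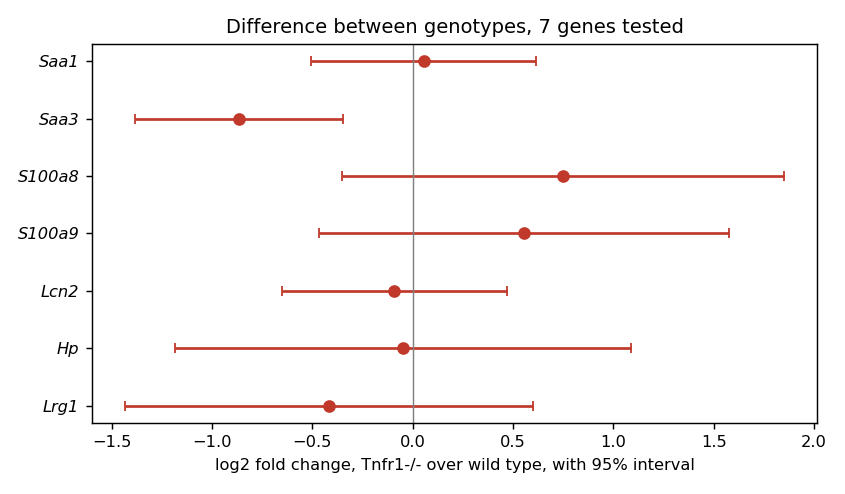
Log2 fold change, Tnfr1-/- over wild type, of the 7 genes tested, with the 95% interval of the limma fit as a bar (6 Tnfr1-/- and 5 wild-type colons). The interval of Saa3, -1.38 to -0.35, lies below 0, and the other 6 intervals cross 0.

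The ratio of Saa1 plus Saa2 to Saa3 within each library sets the pair of genes best known from gut epithelium against Saa3. The ratio was 131, 120, 141, 134, 173 and 85.2 in Tnfr1-/- colons, against 54.2, 104, 30.4, 70.3 and 97.1 in wild-type colons. Of the 6 Tnfr1-/- colons, 5 had a higher ratio than every wild-type colon, and Tnfr1-/- replicate 6 lay among the wild type. On the log2 scale, with 0.5 added to both levels, the mean was 6.87 ± 0.33 in Tnfr1-/- colons (SD, n = 6) and 5.95 ± 0.70 in wild-type colons (SD, n = 5). The ratio was 1.89-fold higher in Tnfr1-/- colons, a log2 difference of 0.92 (two-sided exact permutation test over 462 splits, p = 0.0173, and 0.0346 adjusted over the 2 ratios tested). The numerator, Saa1 plus Saa2, averaged 719 ± 140 in Tnfr1-/- colons (SD, n = 6) and 735 ± 321 in wild-type colons (SD, n = 5). The difference in the ratio was thus mostly that of Saa3, whose limma adjusted p over all genes was 0.343. The ratios were chosen with earlier results of these data known, which the adjustment over 2 ratios does not cover. In wild-type replicate 3, which had the lowest ratio, the transcript with no coding sequence held 3.86 of the 13.7 of Saa3. Across the 11 mice, no correlation of Saa1 with Saa3 was detected (Pearson r = 0.15, Spearman rho = 0.03, permutation p = 0.655 and 0.947, and 0.916 and 0.968 adjusted over the 21 pairs of the 7 genes), and r was 0.41 without the 2 libraries farthest from the median of Saa1.

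**Figure D3:**
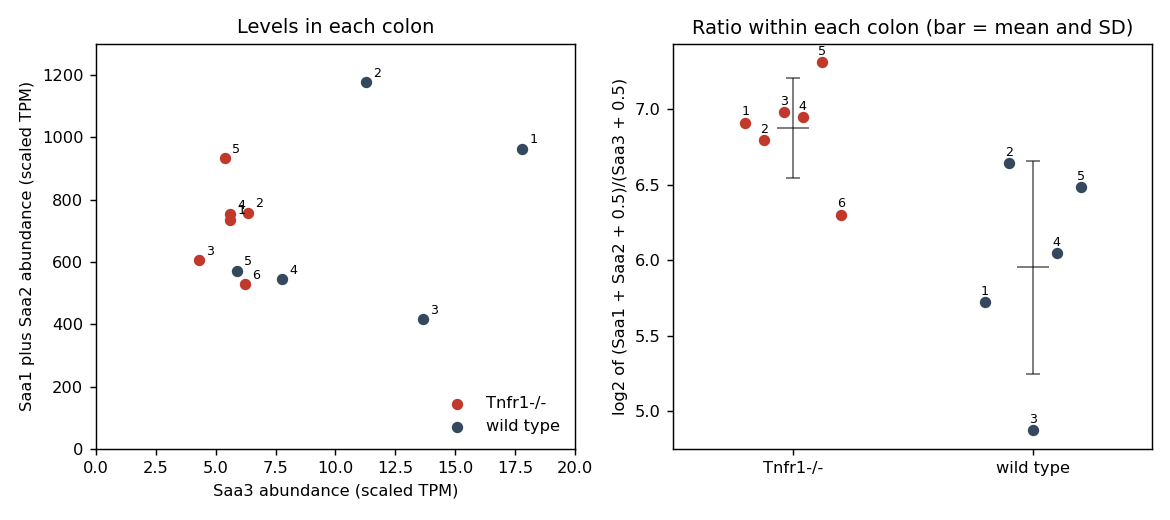
Left, the summed abundance of Saa1 and Saa2 against that of Saa3 in each colon, in the same unit. Right, the log2 ratio of these sums in each colon, with the mean and SD as a bar, Tnfr1-/- in red and wild type in blue. The wild-type colons spread to 17.8 along the Saa3 axis, whereas no Tnfr1-/- colon exceeds 6.34.

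Macrophages are a known source of Saa3. Of 13 tested markers of macrophages and monocytes, 12 were lower in Tnfr1-/- colons and 0 were called. Ccr2, the receptor that brings monocytes in, and Fcgr1, a high-affinity IgG receptor, were the 2 with an unadjusted p under 0.05, and the median of the list's log2 fold change was -0.15 against -0.01 over all genes. Their summed level was 142 to 218 in Tnfr1-/- colons and 185 to 242 in wild-type colons. It was 185 and 223 in wild-type replicates 1 and 2, where Saa3 was 17.8 and 11.3, and 242 in wild-type replicate 4, where Saa3 was 7.76. All 15 markers of colonic epithelium were also lower in Tnfr1-/- colons, with 0 called and 1, Car1 (a carbonic anhydrase of surface colonocytes), at an unadjusted p under 0.05. Over all genes tested, 5.17% were lower with such a p. Markers of 1 cell type can vary together, so the genes of a list are not separate results. The part of these cell types in the level of Saa3 was not tested. Reg3b and Reg3g, lectins that gut epithelium secretes against bacteria, were highest in wild-type replicates 1 and 2. Reg3b was at most 270 in Tnfr1-/- colons, against 1176 and 664 in those 2 mice and at most 255 in the other wild-type colons. Neither was called, and of the 13 antimicrobial genes tested of 15 listed, 4 were higher and 9 lower, with Reg3b the 1 at an unadjusted p under 0.05 (limma adjusted p = 0.4996 for Reg3b and 0.580 for Reg3g).

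Lcn2 (ENSMUSG00000026822, chr2:32384633-32388252, minus strand), the siderophore-binding lipocalin, was low in both genotypes. It was at 2.43, 3.19, 1.39, 1.79, 0.883 and 2.20 in Tnfr1-/- colons, and at 2.02, 2.85, 1.37, 1.47 and 2.75 in wild-type colons. The groups overlapped, with Tnfr1-/- colons holding both the highest and the lowest value. The log2 fold change was -0.09 (SE 0.26, 95% interval -0.65 to 0.47, limma adjusted p = 0.948).

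The 2 chains of calprotectin had higher means in Tnfr1-/- colons, where 1 mouse lay far above the rest, and neither was called. S100a8 (ENSMUSG00000056054, chr3:90668978-90670035, plus strand) and S100a9 (ENSMUSG00000056071, chr3:90692632-90695721, minus strand) lie 22597 bases apart and encode the 2 chains of the dimer. S100a8 was at 8.47, 7.55, 5.79, 9.79, 3.67 and 39.9 in Tnfr1-/- colons, and at 5.64, 8.72, 6.98, 2.79 and 3.89 in wild-type colons. S100a9 was at 8.40, 13.04, 5.42, 4.88, 5.73 and 35.9 in Tnfr1-/- colons, and at 6.42, 9.26, 6.86, 3.28 and 6.46 in wild-type colons. Tnfr1-/- replicate 6 was the highest library for both, and the other 5 overlapped the wild type. The log2 fold change was 0.75 for S100a8 (SE 0.50, limma adjusted p = 0.674) and 0.55 for S100a9 (SE 0.46, limma adjusted p = 0.743). Without Tnfr1-/- replicate 6, these were 0.33 and 0.17.

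The 2 chains pair in the protein, and their RNAs were compared within each mouse. The ratio of S100a8 to S100a9 was 1.01, 0.579, 1.07, 2.01, 0.640 and 1.11 in Tnfr1-/- colons, and 0.878, 0.941, 1.02, 0.851 and 0.602 in wild-type colons. The highest and the lowest ratio were both in Tnfr1-/- colons. The mean log2 ratio was -0.02 ± 0.60 in Tnfr1-/- colons (SD, n = 6) and -0.22 ± 0.26 in wild-type colons (SD, n = 5), a difference of 0.20 (two-sided exact permutation p = 0.554). It was 0.0031 without Tnfr1-/- replicate 4, 0.084 without wild-type replicate 5, 0.31 without Tnfr1-/- replicate 5 and 0.34 without Tnfr1-/- replicate 2. In S100a9, 1 coding transcript was listed at 0 in 4 libraries and the other at 0 in 6, so only the sum over the gene was used. Over the 11 mice, S100a8 and S100a9 had a Pearson r of 0.87 and a Spearman rho of 0.58 on the log2 scale (permutation p = 0.00339 and 0.0660, and 0.0356 and 0.297 adjusted over 21 pairs). Without the 2 libraries farthest from the median of S100a8, r was 0.32. Leaving out extreme values narrows the range and can lower r by itself, so how far the relation rests on those libraries is not settled.

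Neutrophils are the best known source of calprotectin. Of 25 neutrophil markers, 8 were tested, 5 were higher and 3 lower in Tnfr1-/- colons and 0 were called, and 14 stayed under 1 in every library. The 17 that were not tested reached at most 1.12, and 1 of them, Elane, the neutrophil elastase, was at 0 in all 11 libraries. The summed neutrophil list ran from 68.1 to 312 in Tnfr1-/- colons and from 108 to 214 in wild-type colons. Its highest sum was in Tnfr1-/- replicate 6, where 2 genes that skin also expresses, Asprv1 at 157 and Wfdc21 at 101, made up most of it. Of the 8 tested markers, these 2, Padi4 at 9.10 and Il1r2 at 4.51 were highest of the 11 in that library. The other 4 had their highest value elsewhere, Ltf with 42.6 in Tnfr1-/- replicate 2, and Ly6g, Cd177 and Mmp9 with 61.2, 18.7 and 1.95 in wild-type replicate 2. Over the 11 libraries the lowest values were 12.6 for Ly6g, 4.60 for Cd177 and 4.28 for Ltf. Elane, Padi4, Ly6g and Cd177 were chosen after their values were seen. The part of neutrophils in the level of calprotectin was not tested.

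Markers of squamous keratinocytes, which line the anal canal and skin next to the distal colon, were highest in the same library as calprotectin. All 18 were tested, all 18 were higher in Tnfr1-/- colons and 0 were called. Of the 18, 3 (Krt4, Krt6a and Krt13, keratins of stratified epithelium) had an unadjusted p under 0.05. Over all genes tested, 4.2% were higher with such a p. Markers of 1 tissue can vary together, so these are not 18 separate results. Their median log2 fold change was 0.53, against -0.01 over all genes. Their summed level was 2532, 2494, 1938, 2878, 793 and 3454 in Tnfr1-/- replicates 1 to 6, and 1332, 1757, 1776, 1150 and 1479 in wild-type replicates 1 to 5. Tnfr1-/- replicate 6 was highest for this sum and for both calprotectin chains, while Tnfr1-/- replicate 5 was lowest for the sum and had the lowest S100a8 of its group. The lowest S100a9 of the group, 4.88, was in replicate 4, whose squamous sum was the next highest, and replicate 5 had 5.73. By a search over 10417 genes with a mean of at least 5, the 3 genes most like S100a8 over the 11 libraries were Abhd5, a cofactor of fat breakdown, Klk10, a kallikrein-type protease, and Evpl, a protein of the cornified envelope, with Pearson r of 0.95, 0.93 and 0.93. For S100a9 they were Arg1, Stx6 and Eps15 (r of 0.90, 0.89 and 0.88). These r values are the highest of a large search and carry no test. The part of squamous tissue in the level of calprotectin was not tested.

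**Figure D4:**
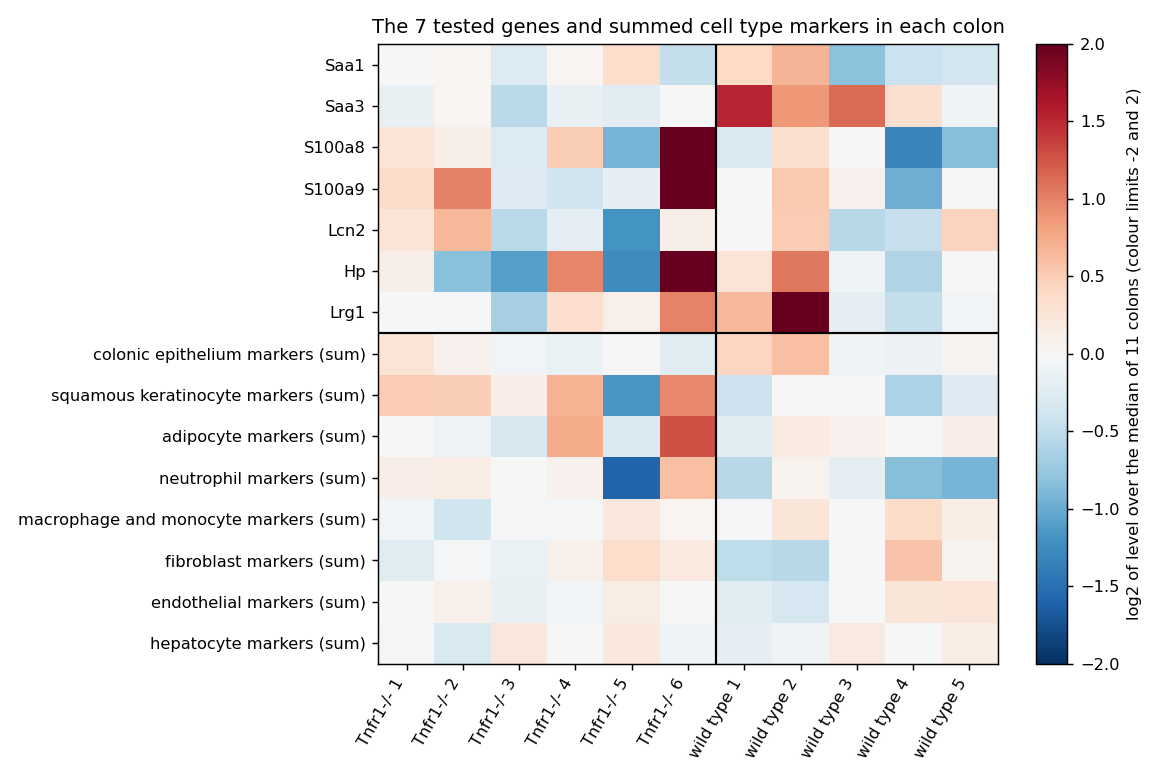
Level of each of the 7 genes tested, and the summed level of 8 lists of cell type markers, in each colon, as log2 of the level over the median of the 11 colons. Tnfr1-/- colons are left of the line and wild-type colons right. Colours stop at -2 and 2. Tnfr1-/- replicate 6 is the highest of the 11 for S100a8, S100a9, Hp and the summed squamous keratinocyte, adipocyte and neutrophil markers. Its neutrophil sum is mostly Asprv1 and Wfdc21, which skin also expresses.

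Hp (ENSMUSG00000031722, chr8:109575128-109579172, minus strand) encodes haptoglobin, which captures free haemoglobin and is made in liver and fat. It was at 2.92, 1.51, 1.26, 5.31, 1.13 and 12.4 in Tnfr1-/- colons, and at 3.28, 5.64, 2.54, 1.78 and 2.71 in wild-type colons. Tnfr1-/- replicates 6 and 4 were among the highest 3 of the 11, and 3 other Tnfr1-/- colons were the lowest 3. The log2 fold change was -0.05 (SE 0.52, 95% interval -1.18 to 1.09, limma adjusted p = 0.985). Adipocyte markers summed to 653 in Tnfr1-/- replicate 6 and 454 in Tnfr1-/- replicate 4, against 217 to 269 in the other Tnfr1-/- colons and 231 to 302 in wild-type colons. Wild-type replicate 2, whose Hp of 5.64 was above that of Tnfr1-/- replicate 4, had an adipocyte sum of 302. Of 11 tested adipocyte markers, 8 were higher in Tnfr1-/- colons and 0 were called. Of the 11, 1, Pparg, had an unadjusted p under 0.05 and was lower, against 5.17% of all genes tested. Pparg was at 53.0 ± 6.42 in Tnfr1-/- colons (SD, n = 6) and 61.7 ± 4.79 in wild-type colons (SD, n = 5). Fabp4, the fatty acid carrier of fat cells, was at 382 and 253 in Tnfr1-/- replicates 6 and 4, against 108 to 131 in the other Tnfr1-/- colons and 114 to 160 in wild-type colons. Among the 3 genes most like Hp was Lipe, the hormone-sensitive lipase of fat cells (Pearson r = 0.90), beside Eif3i and Herc4 (0.95 and 0.92). Of 15 liver markers, 6 were tested, 1 was higher and 5 were lower in Tnfr1-/- colons, and 0 were called. Among those tested, Ttr ran from 28.9 to 48.9 over the 11 libraries, Hpd from 20.6 to 39.3, Serpina1b from 9.23 to 37.8, Cps1 from 8.61 to 27.8, Tat from 2.87 to 11.02 and Apoc3 from 0.70 to 2.82. The 9 not tested reached at most 1.16, with albumin (Alb) between 0.228 and 0.860 and the urinary protein gene Mup3 at 0 in every library. Serpina1b, Apoc3, Alb and Mup3 were chosen after their values were seen. The summed liver markers were at 106 in Tnfr1-/- replicate 6, against 91.8 to 133 in the other Tnfr1-/- colons and 101 to 128 in wild-type colons. The part of fat tissue in the level of Hp was not tested. Hp and S100a8 had a Pearson r of 0.82 and a Spearman rho of 0.71 over the 11 mice (permutation p = 0.00298 and 0.0181, and 0.0356 and 0.190 adjusted over 21 pairs), with r = 0.61 without the 2 libraries farthest from the median of S100a8.

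Lrg1 (ENSMUSG00000037095, chr17:56119678-56122001, minus strand) encodes a secreted glycoprotein that modulates TGF-beta signalling in blood vessels. It was at 0.970, 0.957, 0.609, 1.22, 1.04 and 1.93 in Tnfr1-/- colons, and at 1.52, 8.32, 0.853, 0.696 and 0.938 in wild-type colons. Wild-type replicate 2 stood alone, and the other 10 libraries overlapped. The log2 fold change was -0.42 (SE 0.46, 95% interval -1.43 to 0.60, limma adjusted p = 0.810). Lrg1 reached 1 in exactly 5 libraries, wild-type replicate 2 among them. Without any 1 of those 5 it no longer passed the filter on low values. Of 11 tested endothelial markers, 7 were higher in Tnfr1-/- colons and 0 were called. Their summed level in wild-type replicate 2, at 110, was the lowest of the 11.

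By mean level, on a scale that already divides by transcript length, the order was Saa1, S100a9, S100a8, Saa3, Hp, Lcn2, Lrg1 and Saa2. Saa1 was above S100a9 in all 11 libraries. S100a9, S100a8 and Saa3 had means of 9.61, 9.38 and 8.17 over the 11 libraries, and their levels were not tested against each other. S100a9 was above S100a8 in 6 of 11 libraries. S100a8 was above Saa3 in 5 of 11, all of them Tnfr1-/- colons, and below it in every wild-type colon. Saa3 was above Hp in 10 of 11, Hp above Lcn2 in 8, Lcn2 above Lrg1 in 9 and Lrg1 above Saa2 in 11. All 7 genes tested had a within-group SD, pooled over both genotypes, above the median of genes of like level (mean within a factor of 2). The spread could differ between genotypes. Before the log, the SD of Saa3 was 0.731 in Tnfr1-/- and 4.73 in wild-type colons, and that of S100a8 was 13.6 and 2.37. The pooled within-group SD was 0.94 on the log2 scale for Hp, 0.92 for S100a8, 0.85 for S100a9, 0.84 for Lrg1, 0.47 for Saa1, 0.45 for Lcn2 and 0.43 for Saa3. The median SD of such genes was 0.12 for those at the level of Saa1 and 0.16 to 0.29 for those at the levels of the other 6.

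The genes most like each of the others over the 11 libraries were, by the same search, Pla2g10, Gna14 and Slc35e1 for Saa1 (Pearson r of 0.96, 0.95 and 0.95). Pla2g10 is a secreted phospholipase. They were Mrps10, Slc51b and Acat1 for Saa3 (r of 0.91, 0.91 and 0.90), where Slc51b is a chain of the bile acid exporter of gut cells. They were Sertad1, Polm and Tsg101 for Lcn2 (r of 0.88, 0.88 and 0.87) and Sept5, Il34 and Mtf1 for Lrg1 (r of 0.95, 0.89 and 0.88). Leaving out the 2 libraries farthest from the median brought r to 0.47 for Sept5, 0.82 for Il34 and 0.61 for Mtf1. For the genes most like S100a9, it brought r to 0.63 for Arg1, 0.37 for Stx6 and 0.63 for Eps15.

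Of 35 cytokines, receptors and factors that act upstream of these genes, a list that leaves out Tnfrsf1a itself, 28 were tested, 10 were higher and 18 lower in Tnfr1-/- colons, and 0 were called. Socs3, the feedback inhibitor that STAT3 induces, was the 1 with an unadjusted p under 0.05, where 5.17% of all genes tested were lower. It was at 7.51 ± 2.37 in Tnfr1-/- colons (SD, n = 6) and 11.5 ± 3.27 in wild-type colons (SD, n = 5), with a log2 fold change of -0.59 (limma adjusted p = 0.433). Il1b was at 0.705 ± 0.270 in Tnfr1-/- colons (SD, n = 6) and 1.74 ± 1.57 in wild-type colons (SD, n = 5, limma adjusted p = 0.551), with its highest value, 4.49, in wild-type replicate 2. Tnf, too low for the test, ran from 0.376 to 0.957 in Tnfr1-/- colons. In wild-type colons it reached 2.34 in replicate 1 and 2.38 in replicate 2, and 0.387 to 0.632 in the others. Il6 stayed at or under 0.0968, Il22 at or under 0.066 and Il17a at or under 0.0900 in every library. Tnf, Il6, Il22 and Il17a were chosen after their values were seen.

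Of 28 further acute-phase genes, 14 were tested, 7 were higher and 7 lower in Tnfr1-/- colons, and 0 had an unadjusted p under 0.05. The metal-binding metallothioneins Mt1 and Mt2 were the highest of them, with Mt2 at 1144 ± 231 in Tnfr1-/- colons (SD, n = 6) and 1494 ± 547 in wild-type colons (SD, n = 5, limma adjusted p = 0.684). Of 13 other S100 genes tested, 6 were higher and 7 lower, with 0 called, and the highest, S100a6, averaged 3691 in Tnfr1-/- colons and 3617 in wild-type colons. Of 19 receptors and partners, 14 were tested, 10 were higher and 4 lower, and 0 had an unadjusted p under 0.05. Among them, Bsg, a receptor for S100A9, was at 679 ± 50.1 in Tnfr1-/- colons (SD, n = 6) and 724 ± 53.5 in wild-type colons (SD, n = 5, limma adjusted p = 0.699). Scarb1, a lipoprotein receptor that takes up serum amyloid A, was at 35.5 ± 2.46 in Tnfr1-/- colons (SD, n = 6) and 33.3 ± 1.83 in wild-type colons (SD, n = 5, limma adjusted p = 0.656).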

How the data were processed

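RNA from 11 colons was read from a single end for 75 bases from stranded mRNA libraries, per the labels' protocols. Per the submitters' processing notes, kallisto, sleuth and CASAVA were used with mm10, and versions are not given in the sources used here. The authors deposited a signal per transcript and library, TPM scaled by the library's size factor. Their p-value and q-value columns are, per the file headers, a test by transcript. The authors' mean is the natural log of normalized estimated counts, and their deposited fold change is on a log2 scale.

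The table had 113991 lines for 113193 transcripts. Repeated lines of 584 transcripts, all with the same values, were kept once, and 97 transcripts without a gene (0.031% of abundance) were left out. Values were summed per Ensembl gene. Since the table holds normalized abundance, the planned count test was not used. limma 3.58.1 (R 4.3.3, empirical Bayes with a trend) compared log2(value + 0.5), a scale that shrinks the fold changes of low genes. The fit was also run on simulated independent genes, which do not vary together as real genes can, and no result here rests on that run. The 2 ratios were compared by exact permutation and correlations by 100000 permutations (scipy 1.17.1), in Python 3.11.15 with numpy 2.4.6, pandas 2.3.3 and, for figures, matplotlib 3.10.9. Estimated reads follow the length less 199 bases times the abundance, a line that 98.8% of 39641 transcripts met within 0.1%. Positions are GENCODE M21 on GRCm38.

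The members, the 14 gene lists and the tests were chosen with earlier results of these data known. Named genes are the 8 members, Tnfrsf1a, up to 4 list genes of smallest p and the 2 of highest mean, the 3 genes most like each member, and Reg3b and Reg3g. Other names are marked as chosen after their values were seen.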

Additional observations from a re-analysis of the deposited data

Results flagged for a closer look

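Of the 20 groups of values checked, 4 held a library far from the others of its group. An expected count of about 1 takes the groups as independent. S100a8, S100a9 and Hp were flagged in the same mouse, so 4 against 1 says nothing about chance. S100a8 was at 39.9 in Tnfr1-/- replicate 6, and the next highest Tnfr1-/- colon was at 9.79. S100a9 was at 35.9 in the same library, and the next Tnfr1-/- colon was at 13.04. Hp was at 12.4 in that library too, with 5.31 next. Lrg1 was at 8.32 in wild-type replicate 2, and the next wild-type colon was at 1.52. Squamous keratinocyte markers summed to 3454, adipocyte markers to 653 and neutrophil markers to 312 in Tnfr1-/- replicate 6, the highest of the 11 libraries for each, and their part in these values was not tested. Most of that neutrophil sum was Asprv1 at 157 and Wfdc21 at 101, which skin also expresses. Wild-type replicate 2 held the highest summed markers of colonic epithelium, at 16323, and the highest Il1b, at 4.49.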

How the results depend on the processing

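The log2 ratio of Saa1 plus Saa2 to Saa3 was higher in Tnfr1-/- colons under all 16 alternatives. Leaving out 1 library gave 0.65 to 1.09, with exact permutation p from 0.00794 to 0.0381. Without wild-type replicates 1 and 2 it was 1.07 (exact permutation p = 0.0476), and without Tnfr1-/- replicate 6 and wild-type replicate 2, chosen after seeing the data, 1.21 (exact permutation p = 0.0159). With the replicate number as a block, which uses 5 pairs and drops Tnfr1-/- replicate 6, it was 1.03 with an exact sign-flip p of 0.0625, the smallest that 5 pairs can give. The labels do not say whether same-numbered mice pair. Same-numbered deviations correlated at 0.274, -0.00596, 0.383, -0.223 and 0.333, and 1 of 5 matched best with its own number. So few libraries cannot decide whether they pair. The replicate block changed no other call.

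Saa3 lay between -1.06 and -0.59 on the log2 scale under its 20 alternatives, with limma adjusted p from 0.202 to 0.632. The count of genes called was 3 with sample quality weights and 1 to 2 when 1 library was left out (2 without wild-type replicate 1). Signs of members near 0 turned. Hp was 0.15 with sample quality weights and 0.26 without wild-type replicates 1 and 2, where Lcn2 was 0.047. Leaving out 1 library gave -0.12 to 0.25 for Saa1, -0.22 to 0.064 for Lcn2 and -0.44 to 0.16 for Hp, and without Tnfr1-/- replicate 6 and wild-type replicate 2 Saa1 was 0.34. S100a8 (0.33 to 1.01) and S100a9 (0.17 to 0.76) kept their sign under 20 alternatives each. The cause was not tested. At a minimum value of 10, only Saa1 of the members was tested, and Lrg1 gave a value in 13 alternatives, from -0.62 to -0.049, with -0.049 under sample quality weights. Saa2 had 1 to 13 estimated reads per library, and in the fit without the filter the 95% interval of its log2 fold change was -0.69 to 0.49.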

Other observations

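Outside the members, 2 other S100 genes varied widely between mice. S100a3, known from the hair cuticle, was at 70.4, 18.4, 179, 398, 1.09 and 627 in Tnfr1-/- colons, and at 108, 176, 200, 43.6 and 49.4 in wild-type colons. S100a7a, a gene of skin, was highest in Tnfr1-/- replicate 6, at 28.9, and had 1.10 in Tnfr1-/- replicate 5, against 2.32 to 7.95 in wild-type colons. Both were chosen after their values were seen. Ttr, which encodes the carrier protein transthyretin, was 1 of the 6 liver markers tested. Ttr averaged 41.5 ± 4.76 in Tnfr1-/- colons (SD, n = 6) and 33.3 ± 3.35 in wild-type colons (SD, n = 5), with a log2 fold change of 0.31 (limma unadjusted p = 0.00458, adjusted p = 0.375). Markers of red blood cells summed to 316 to 1455 in Tnfr1-/- colons and 446 to 698 in wild-type colons, with 4 of 5 tested markers higher in Tnfr1-/- colons and 0 called. Of 11 fibroblast markers, 7 were higher in Tnfr1-/- colons and 0 were called.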
